A study of Arabidopsis thaliana with 16 samples.

Results

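DNA affinity purification sequencing (DAP-seq) incubates a tagged protein made in vitro with fragmented genomic DNA and sequences what is retained, and plant genomic DNA also carries the genomes of mitochondria and chloroplasts. All peaks that lay on those 2 organelle sequences were taken from the 16 peak lists, which gave 1657 of 293185 peaks, 716 on the mitochondrial and 941 on the chloroplast sequence. The baits were 3xFLAG-PLT7, 3xFLAG-PLT3 and 3xFLAG-PLT5, with 3xFLAG-GFP, called GFP below, as the control bait. Each bait was tested on DNA from Col-0 inflorescence meristems (IM, plants of 4 to 8 weeks) and from Col-0 shoot apical meristems (SAM, seedlings of 9 days), with 2 replicates per bait and tissue. About 500 meristems were collected per replicate and 100 ng of DNA entered a library, and since the methods count 2 replicates for a tissue and name none for a bait, the baits may have shared the 2 DNA collections of a tissue.

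PLETHORA (PLT) proteins are AP2-domain transcription factors that act in the nucleus, where they control meristem and organ formation. In DAP-seq no compartment separates a protein from organelle DNA, so the assay reads its affinity for any sequence in the extract. Mitochondrial DNA of Arabidopsis encodes subunits of the respiratory chain (nad, cob, cox and atp genes), cytochrome c maturation proteins (ccm), ribosomal proteins, rRNAs and tRNAs. Chloroplast DNA encodes photosystem and electron transport subunits (psa, psb and pet), the NDH complex (ndh), ATP synthase (atp), the large subunit of Rubisco (rbcL), a bacterial-type RNA polymerase (rpo) and parts of the translation machinery. Several mitochondrial genes, among them nad1, nad2 and nad5, are trans-spliced from pieces annotated far apart, and the distances to these genes were measured to the nearest annotated piece.

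The following windows lie at summits, the positions of highest coverage. The first 4 come from the mitochondrial regions with the highest mean enrichment among those with a peak in all 12 PLT libraries and no GFP library. In the first 3 of these it was measured against a far lower background than near rrn18, as described below. The next 8 were chosen from the same kind of region because they held a match to the AP2-domain consensus of PLT proteins, so their matches are no finding. The last 3 come from regions that had a peak in all 4 GFP libraries and none in a PLT library. Each window spans 91 bp, 45 bp on each side of the summit, from the RefSeq copy of TAIR10.1, plus strand, and capitals mark the consensus match. The consensus was written as CAC, any 3 bases, then TNCCNANG, searched on both strands with at most 1 mismatch at its 8 fixed letters. A match on the minus strand reads as the reverse complement.
Mitochondrial positions 164429 to 164519, 1117 bp downstream of nad2: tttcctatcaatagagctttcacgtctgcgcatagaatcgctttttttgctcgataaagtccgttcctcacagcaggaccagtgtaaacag
Mitochondrial positions 315897 to 315987, 71 bp upstream of ccmFN1: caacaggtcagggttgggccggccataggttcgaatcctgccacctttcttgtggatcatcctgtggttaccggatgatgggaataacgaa
Mitochondrial positions 265333 to 265423, atp6 exon: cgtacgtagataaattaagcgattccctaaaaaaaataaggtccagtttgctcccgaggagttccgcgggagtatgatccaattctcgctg
Mitochondrial positions 131672 to 131762, 3494 bp upstream of rrn18: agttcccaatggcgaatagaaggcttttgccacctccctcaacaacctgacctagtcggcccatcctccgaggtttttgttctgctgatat
Mitochondrial positions 114512 to 114602, 205 bp downstream of cox1: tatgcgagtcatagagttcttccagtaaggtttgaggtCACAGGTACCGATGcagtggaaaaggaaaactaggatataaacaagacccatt
Mitochondrial positions 112476 to 112566, 2241 bp downstream of cox1: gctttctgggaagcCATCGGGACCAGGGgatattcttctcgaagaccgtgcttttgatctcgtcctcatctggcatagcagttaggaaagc
Mitochondrial positions 25169 to 25259, nad9 exon: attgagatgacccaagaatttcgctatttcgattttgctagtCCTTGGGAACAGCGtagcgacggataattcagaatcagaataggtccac
Mitochondrial positions 13506 to 13596, 4263 bp downstream of ccmB: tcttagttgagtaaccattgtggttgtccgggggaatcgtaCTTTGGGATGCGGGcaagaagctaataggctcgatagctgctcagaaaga
Mitochondrial positions 118942 to 119032, 2642 bp upstream of cox1: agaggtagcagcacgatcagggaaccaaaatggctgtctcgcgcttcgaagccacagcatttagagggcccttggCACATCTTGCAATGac
Chloroplast positions 37916 to 38006, psaB exon: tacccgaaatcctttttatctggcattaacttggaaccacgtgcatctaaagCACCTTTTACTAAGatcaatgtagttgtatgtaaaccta
Chloroplast positions 41490 to 41580, psaA exon: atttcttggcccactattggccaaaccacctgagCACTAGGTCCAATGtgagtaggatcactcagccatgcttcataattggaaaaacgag
Chloroplast positions 68679 to 68769, rpl20 exon: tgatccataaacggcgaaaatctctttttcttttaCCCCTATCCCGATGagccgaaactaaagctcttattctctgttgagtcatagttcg
Mitochondrial positions 358939 to 359029, 1123 bp upstream of nad5: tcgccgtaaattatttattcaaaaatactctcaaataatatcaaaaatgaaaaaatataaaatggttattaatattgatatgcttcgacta
Chloroplast positions 14805 to 14895, 80 bp upstream of atpI: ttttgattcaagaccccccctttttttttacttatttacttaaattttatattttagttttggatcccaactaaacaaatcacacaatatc
Chloroplast positions 66660 to 66750, 142 bp upstream of trnP: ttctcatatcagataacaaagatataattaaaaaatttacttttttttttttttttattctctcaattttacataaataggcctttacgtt
The windows at nad2, ccmFN1, atp6 and rrn18 hold no match. Of the windows chosen for a match, the first cox1 window holds one with 0 mismatches, centred 0 bp from the summit, and the other 7 hold one with 1 mismatch. The matches at nad9, ccmB, psaA and rpl20 were centred at most 4 bp from the summit. Those in the cox1 windows from 112476 and from 118942 and in psaB were centred at −24, 36 and 14 bp from it. The 3 GFP windows hold no match. Within 100 bp of the summit, 5 of the 26 mitochondrial and 4 of the 6 chloroplast regions with a peak in all 12 PLT libraries and no GFP library had a match, beside 10.3% of all mitochondrial and 6.31% of all chloroplast windows of that length, in unique sequence or not. Of the regions outside the 3 recurrence patterns, 5 of 35 mitochondrial and 1 of 23 chloroplast ones had one. Of regions with a peak in all 16 libraries, 0 of 2 mitochondrial and 2 of 24 chloroplast ones did. Of those with a peak in all 4 GFP libraries and at most 2 PLT libraries, 0 of 2 and 0 of 6 did.

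PLT baits gave many more mitochondrial peaks than GFP, whereas chloroplast peaks were about as many with either. The number of mitochondrial peaks was 58, 57, 57 and 60 with PLT7 (IM 1, IM 2, SAM 1, SAM 2), 52, 64, 61 and 63 with PLT3, 58, 53, 48 and 48 with PLT5, and 12, 14, 5 and 6 with GFP. The PLT and GFP libraries did not overlap: the mean was 56.6 ± 5.33 peaks with PLT baits (SD, n = 12) and 9.25 ± 4.43 with GFP (SD, n = 4), a difference of 47.3 (exact two-sided permutation test over libraries, p = 0.000549, the smallest this design allows; Benjamini-Hochberg adjusted over 8 contrasts, 0.0044). The number of chloroplast peaks was 58, 60, 59 and 61 with PLT7, 56, 68, 63 and 69 with PLT3, 60, 51, 50 and 49 with PLT5, and 58, 57, 59 and 63 with GFP. These averaged 58.7 ± 6.44 with PLT baits (SD, n = 12) and 59.2 ± 2.63 with GFP (SD, n = 4), and the difference was −0.583 (exact permutation test, p = 0.884).

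The share of organelle peaks that lay on chloroplast DNA followed from this. It was between 49.0% and 52.3% in every PLT library and between 80.3% and 92.2% in the GFP libraries. The means were 50.9 ± 0.852% with PLT baits (SD, n = 12) and 86.7 ± 5.98% with GFP (SD, n = 4; exact permutation test, p = 0.000549, adjusted 0.0044). The genome-wide background that MACS used, recovered from each library's values, was 16.1 to 36.3 fragments in PLT libraries and 0.42 to 0.706 in GFP libraries, so the bait and the depth cannot be told apart in any comparison with GFP.

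Among the PLT baits, the number of organelle peaks varied little. PLT7, PLT3 and PLT5 libraries had 118 ± 2.38, 124 ± 11.3 and 104 ± 9.67 organelle peaks (SD, n = 4 each), and the 3 differences between baits did not pass the exact permutation test (p = 0.0571 to 0.314, where 0.0286 is the smallest 4 against 4 libraries allow). As a share of all peaks of a library, organelle peaks made up 0.391 ± 0.0428% with PLT7, 0.445 ± 0.0845% with PLT3, 1.51 ± 0.663% with PLT5 and 1.06 ± 0.270% with GFP (SD, n = 4 each). The shares with PLT7 and with PLT3 lay below those with PLT5 and with GFP, without overlap, but none of the 4 contrasts passed after adjustment (exact permutation test, p = 0.0286, adjusted 0.0571, for each). The total number of peaks, which is the denominator, was 26660 to 32232 with PLT7, 23360 to 31065 with PLT3, 3934 to 10545 with PLT5 and 5090 to 10003 with GFP.

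The fold enrichment that MACS wrote in column 7, the height of the peak over the local background, was ordered by bait. The median over organelle peaks was 3.02, 2.73, 2.85 and 2.77 in the PLT7 libraries (IM 1, IM 2, SAM 1, SAM 2), 2.26, 2.24, 2.35 and 2.18 with PLT3, 1.48, 1.51, 1.57 and 1.52 with PLT5, and 4.33, 3.71, 3.44 and 3.69 with GFP. No 2 baits overlapped. Every contrast between baits passed the exact permutation test (p = 0.0286, adjusted 0.0327), and all PLT against GFP libraries differed by −1.59 (p = 0.000549, adjusted 0.0044). This median pools organelles that held different shares of the peaks with PLT baits and with GFP, so each organelle was also taken apart, a step added after seeing the data. On mitochondrial DNA the median averaged 3.75 ± 0.154 with PLT7, 2.74 ± 0.118 with PLT3, 1.73 ± 0.0487 with PLT5 and 7.26 ± 0.920 with GFP (SD, n = 4 each), and the PLT − GFP difference was −4.52. On chloroplast DNA it averaged 2.28 ± 0.0779 with PLT7, 1.89 ± 0.0532 with PLT3, 1.36 ± 0.0342 with PLT5 and 3.63 ± 0.429 with GFP, and the difference was −1.79 (exact permutation test, p = 0.000549, adjusted 0.0044, for each organelle). The order of baits was thus the same on both organelles, and both differences were larger than the pooled one.

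Nuclear peaks of the same libraries had the same order of baits. In units of a library's nuclear median, mitochondrial peaks stood at 0.757 to 1.12 in PLT libraries and at 1.41 to 1.80 in GFP libraries (difference −0.693), and chloroplast peaks at 0.612 to 0.764 in PLT libraries and at 0.792 to 0.905 in GFP libraries (difference −0.160; exact permutation test, p = 0.000549, adjusted 0.0044, for each). For both organelles pooled the PLT − GFP difference in these units was −0.0732 (exact p = 0.0599). The PLT7 − PLT3 difference turned negative in these units, at −0.0316 on mitochondrial DNA (exact permutation test, p = 0.229) and −0.108 on chloroplast DNA (p = 0.0286, adjusted 0.0381).

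**Figure D1:**
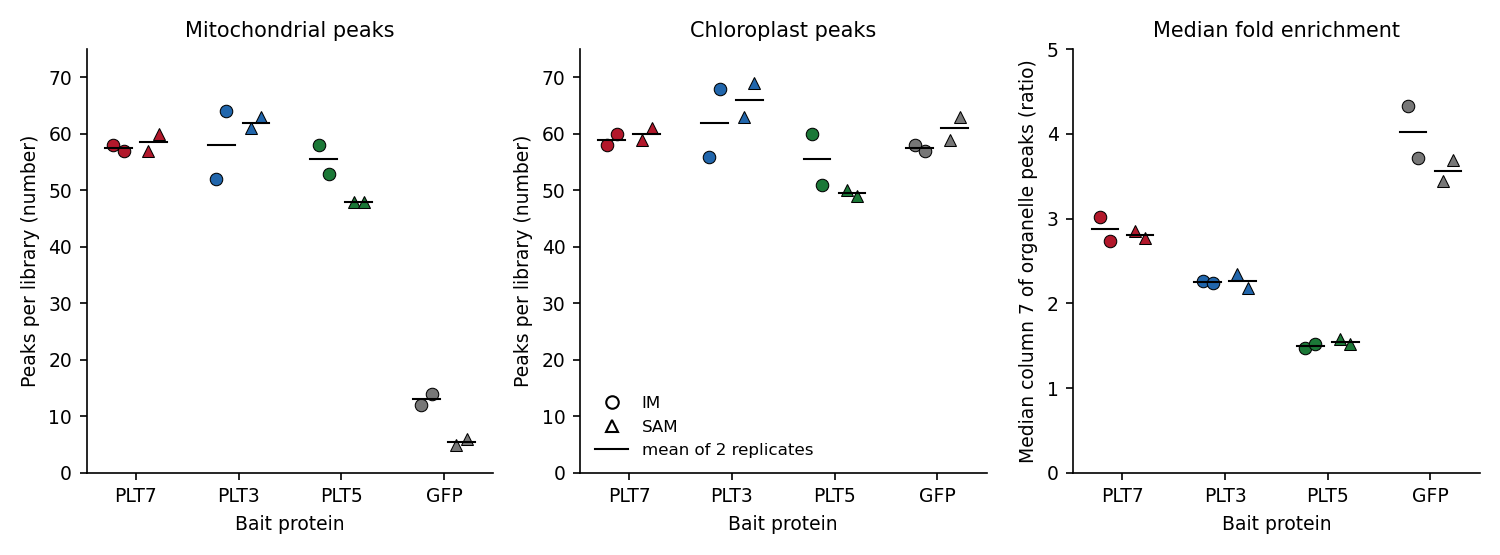
Mitochondrial peaks, chloroplast peaks and the median of column 7 over organelle peaks (vertical axes: number, number, ratio) by bait, with circles for IM, triangles for SAM and lines for the mean of 2 replicates. GFP libraries had 5 to 14 mitochondrial peaks, against 48 to 64 in PLT libraries, and 57 to 63 chloroplast peaks, within the 49 to 69 of PLT libraries.

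Compared with nuclear peaks of the same library, the peaks of both organelles were wider, whereas only chloroplast peaks were lower in every library. The median width was larger by 105 ± 69.7 bp on mitochondrial DNA (SD, n = 16; 14 of 16 libraries; exact sign-flip permutation test, p = 0.000122) and by 146 ± 106 bp on chloroplast DNA (16 of 16; p = 3.05e-05, the smallest possible). The median of column 7 of mitochondrial peaks was above that of nuclear peaks in 12 of 16 libraries, all of them PLT7, PLT3 or GFP, and below it in the 4 PLT5 libraries, with a mean difference of 0.723 ± 1.38 (exact p = 0.0689). That of chloroplast peaks was below the nuclear one in 16 of 16 libraries, by −0.855 ± 0.311 (exact p = 3.05e-05). Both organelles pooled gave −0.543 ± 0.192. Per Mb of sequence, mitochondrial peaks were sparser than nuclear ones in 12 of 16 libraries, by a mean of −31.3 ± 71.0 over all 16 (exact p = 0.0986), and denser in the 4 PLT5 libraries. Chloroplast peaks were denser in 16 of 16, by 228 ± 86.0 (exact p = 3.05e-05). Per Mb of uniquely placeable sequence the difference was positive in all 16 libraries for both, at 257 ± 152 for mitochondrial and 426 ± 91.1 for chloroplast peaks (exact p = 3.05e-05). Peaks of both organelles recurred more often than nuclear ones: the share that overlapped a peak of the other replicate was higher by 25.2 ± 16.7 percentage points on mitochondrial and 31.7 ± 23.7 on chloroplast DNA (SD, n = 8 pairs; 8 of 8 for both; exact sign-flip p = 0.00781, the smallest possible). In PLT libraries it averaged 94.4% on mitochondrial, 94.3% on chloroplast and 73.8% on nuclear DNA. The peaks compared were of unlike strength. Their median −log10 q-value was 41.2 to 451 at organelle peaks and 2.51 to 27.2 at nuclear peaks of a library. The part of peak strength and density in the recurrence was not tested.

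Overlap with GFP peaks of the same tissue set the organelles apart from each other. By any shared bp, 13.2% of mitochondrial peaks (6.35% to 22.6% over the 12 PLT libraries) and 60.7% of chloroplast peaks (50% to 67.3%) overlapped a GFP peak, beside 8.84% of nuclear peaks. The excess of chloroplast over nuclear peaks was 51.8 ± 6.82 percentage points (SD, n = 12; 12 of 12 libraries; exact sign-flip permutation test, p = 0.000488, the smallest possible). That of mitochondrial peaks lay almost wholly in the IM, with 7.10 to 9.97 points in the 6 IM libraries and −1.26 to 1.24 in the 6 SAM libraries (12 libraries pooled, 4.32 ± 4.07, exact p = 0.00391; the 6 SAM libraries alone, 0.534, p = 0.25). The GFP lists they were set against held 12 and 14 mitochondrial peaks in the IM and 5 and 6 in the SAM, and the libraries of a tissue share these lists. Overlap by any bp also grows with the number and width of peaks. Of 99.8 kb of unique chloroplast sequence, peaks covered 25.1 to 30.0 kb in GFP libraries and 32.7 to 51.7 kb in PLT libraries. The overlap that such coverage alone would give was not computed, so these tests do not separate shared sites from dense peaks. Most of these overlapping peaks had their summits apart. With summits within 100 bp, 2.37% of mitochondrial, 17.7% of chloroplast and 2.69% of nuclear PLT peaks had a GFP counterpart.

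To follow recurrence, peaks of all libraries that shared at least 1 bp were joined into regions. The mitochondrial peaks formed 65 regions with a median length of 572 bp that covered 15.5% of the sequence, and the chloroplast peaks formed 59 regions with a median length of 793 bp that covered 44.9%. On the mitochondrial sequence 47 regions had peaks in PLT libraries only, 4 in GFP libraries only and 14 in both. On the chloroplast sequence the numbers were 17, 8 and 34.

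Of the 65 mitochondrial regions, 26 had a peak in all 12 PLT libraries and in no GFP library, as did 6 of the 59 chloroplast regions, whereas 3.06% of all 56170 regions of the genome did. A peak in all 16 libraries was found in 2 mitochondrial and 24 chloroplast regions, beside 0.103% of all regions. A peak in all 4 GFP libraries and at most 2 PLT libraries was found in 2 mitochondrial and 6 chloroplast regions, beside 0.397% of all regions. Chloroplast regions are long and partly hold separate sites. When summits within 100 bp were joined instead, the first pattern held for 26 mitochondrial and 18 chloroplast clusters (2.11% of all 75818 clusters), the second for 0 and 2 (0.0158%) and the third for 4 and 28 (0.133%).

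**Figure D2:**
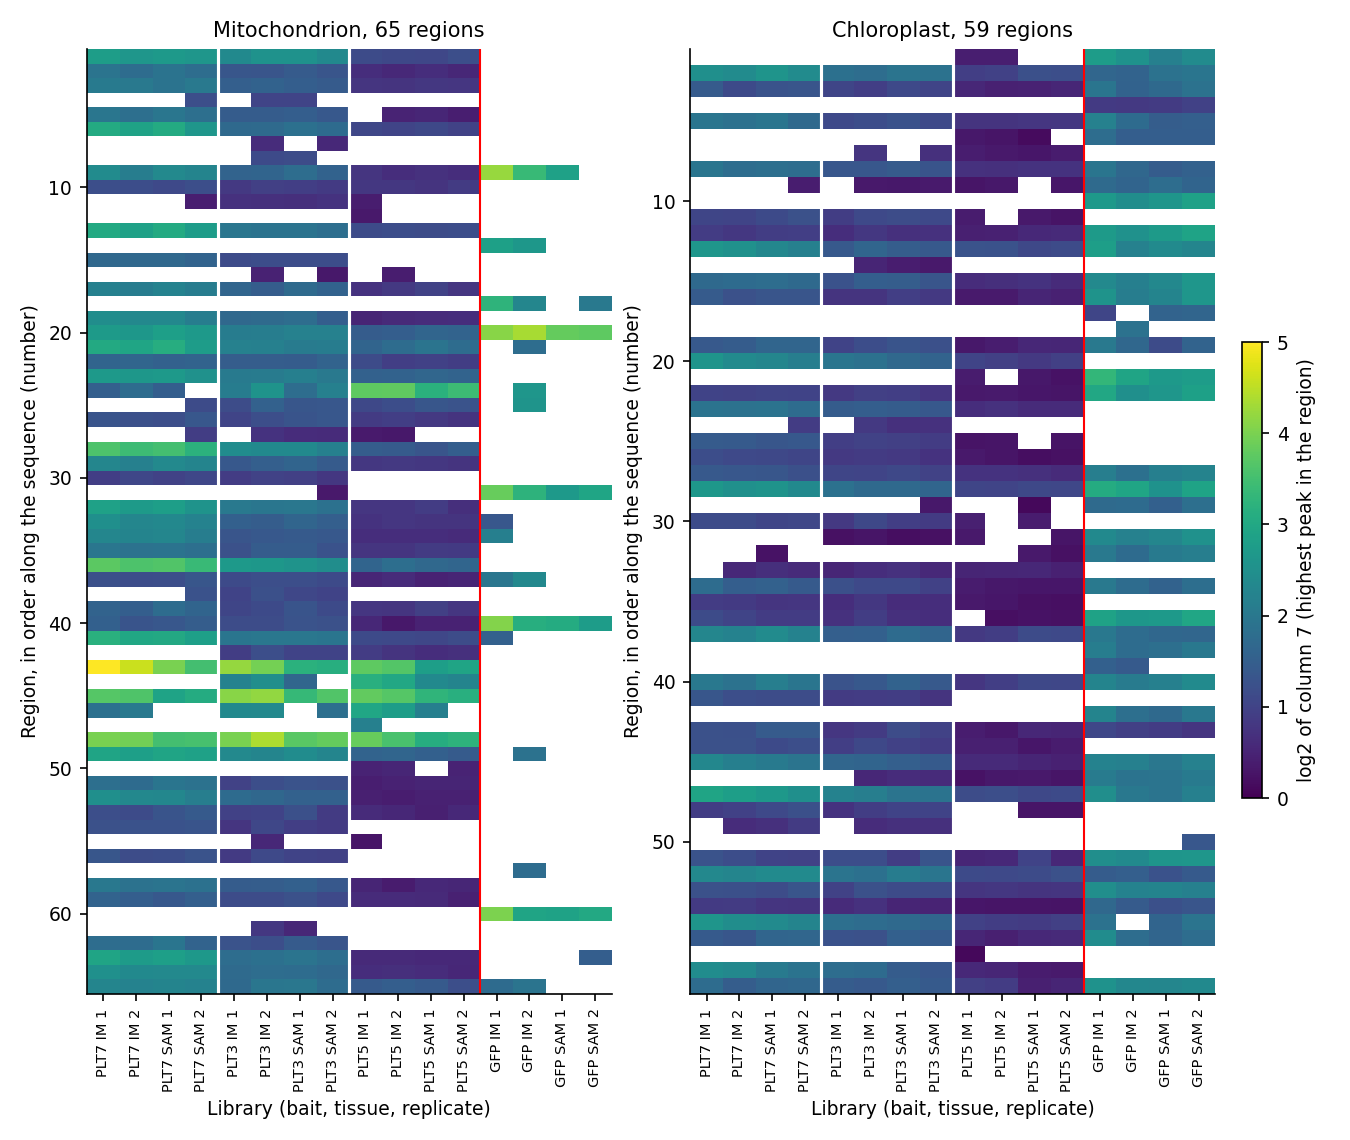
Log2 of column 7 of the highest peak in each of the 65 mitochondrial and 59 chloroplast regions (rows, in order along the sequence) by library (columns: PLT7, PLT3, PLT5, then GFP to the right of the red line), with white for no peak. On mitochondrial DNA the GFP columns are mostly white, and 26 rows are filled in all 12 PLT columns only, whereas 24 chloroplast rows are filled in all 16 columns.

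The petD region is an example of a shared region with separate summits. It spans chloroplast positions 76214 to 77987 with the highest summit in the intron of petD, which encodes subunit IV of the cytochrome b6f complex. The PLT summits lay at positions 77182 to 77187 in all 12 libraries, over a consensus match with 1 mismatch, and the GFP summits lay at 76744 to 76754. Column 7 there was 7.59, 7.02, 6.35 and 5.62 with PLT7 (IM 1, IM 2, SAM 1, SAM 2), 4.63, 4.42, 3.80 and 3.73 with PLT3, 2.25, 2.30, 2.13 and 2.18 with PLT5, and 5.51, 3.98, 3.80 and 4.55 with GFP. The window at the PLT summit reads as follows, with the match in capitals.
Chloroplast positions 77142 to 77232, petD intron: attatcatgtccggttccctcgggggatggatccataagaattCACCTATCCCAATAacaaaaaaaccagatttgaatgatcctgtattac
The trnL region (45052 to 47067) was named by its GFP summits at 46590 to 46593, the first of them 304 bp upstream of this chloroplast leucine tRNA gene. Its PLT summits lay elsewhere in the region, at 45325 to 45426. The mitochondrial rrn26 region (138188 to 139172) had its highest summit, at 138663, 2134 bp downstream of the gene for the large ribosomal RNA. There, 11 of the 12 PLT summits lay at 138418 to 138446 and the GFP summits at 138656 to 138668.

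By mean column 7, the mitochondrial regions with a peak in all 12 PLT libraries and no GFP library were led by 3 that stood alone in long stretches without other peaks. Their rank is not on one footing with the rest. Column 7 there was set against the genome-wide background, whereas the other 34 mitochondrial regions found in all 12 had median backgrounds 5.72 to 17.8 times that level. The 3 regions lay 1117 bp downstream of nad2, a subunit of complex I (164092 to 164641), 71 bp upstream of ccmFN1, a cytochrome c maturation protein (315656 to 316227), and in the exon of atp6, a subunit of ATP synthase (265051 to 266144). At nad2, column 7 was 31.6, 24.2, 16.0 and 11.3 with PLT7 (IM 1, IM 2, SAM 1, SAM 2), 18.5, 15.6, 9.20 and 8.74 with PLT3, and 13.5, 12.7, 6.97 and 7.53 with PLT5. At atp6 it was 12.9, 12.4, 7.44 and 8.48 with PLT7, 17.2, 18.1, 10.2 and 12.5 with PLT3, and 14.0, 12.9, 9.63 and 8.91 with PLT5. At ccmFN1 it was 15.9, 15.3, 11.4 and 11.7 with PLT7, 15.9, 20.9, 13.3 and 14.1 with PLT3, and 14.4, 11.8, 8.68 and 9.44 with PLT5. In all 3 regions both IM libraries of each bait were above both SAM libraries of that bait. This order was not particular to them: of the 68 organelle regions with a peak in all 12 PLT libraries it was also found at 5 chloroplast regions, named rbcL, clpP, petD, ccsA and ndhH (3.85% of all 2208 such regions of the genome), and the opposite order at 1 mitochondrial and 4 chloroplast regions (0.543% of all). Such names go by the highest summit of any library, GFP included, which need not be the PLT summit. The order of baits differed: PLT7 was highest at nad2 and PLT3 at atp6, each in both tissues.

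The next regions had the bait order seen over organelle peaks. At 131387 to 132137, 3494 bp upstream of rrn18, the gene for the small ribosomal RNA, column 7 was 13.3, 12.2, 12.5 and 10.5 with PLT7, 6.48, 6.24, 5.96 and 5.46 with PLT3, and 3.06, 3.48, 3.23 and 3.12 with PLT5. At 112204 to 112911, 2241 bp downstream of cox1, the catalytic subunit of cytochrome c oxidase, it was 12.2, 10.8, 11.4 and 9.29 with PLT7, 5.43, 5.16, 5.20 and 4.51 with PLT3, and 2.78, 2.71, 2.49 and 2.82 with PLT5. At nad9, another complex I subunit, the region (24216 to 25611) had its highest summit in the exon, and column 7 was 8.17, 7.24, 8.32 and 6.75 with PLT7, 3.90, 3.75, 3.73 and 3.52 with PLT3, and 2.21, 2.27, 2.23 and 2.27 with PLT5. In each of these 3 regions the baits did not overlap. IM and SAM libraries of a bait overlapped, except with PLT3 at rrn18 and nad9, where both IM values were above both SAM values. The region 205 bp downstream of cox1 that holds the match with 0 mismatches (114317 to 114729, chosen after its values were seen) had 4.92, 4.50, 5.10 and 4.80 with PLT7, 2.60, 2.84, 3.05 and 2.69 with PLT3, and 1.76, 1.78, 1.75 and 1.67 with PLT5.

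The next 4 regions by mean column 7 over the 12 libraries lay upstream of cox2 (4.70), another subunit of cytochrome c oxidase, upstream of nad1 (4.50), downstream of ccmB (4.32), which encodes a cytochrome c maturation protein, and upstream of cox1 (4.10). The remaining 16 mitochondrial regions of this kind had means of 1.96 to 3.40.

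Exons made up 57.1% of the uniquely placeable chloroplast sequence and held 59.2% of its PLT and 17.7% of its GFP summits. All 6 chloroplast regions with a peak in all 12 PLT libraries and no GFP library had their summit in an exon. They lay in psbD, which encodes the D2 protein of photosystem II (33142 to 33965), ndhH, an NDH subunit (122253 to 122923), psaB and psaA, the core proteins of photosystem I (37746 to 38378 and 41280 to 41895), rpl20, a ribosomal protein (68590 to 68917), and rbcL (55071 to 55413). At psbD column 7 was 6.04, 5.27, 4.93 and 4.39 with PLT7 (IM 1, IM 2, SAM 1, SAM 2), 3.85, 3.66, 3.23 and 3.01 with PLT3, and 2.03, 1.92, 1.77 and 1.92 with PLT5. At ndhH it was 5.38, 5.06, 4.12 and 3.77 with PLT7, 3.45, 3.35, 2.75 and 2.57 with PLT3, and 1.48, 1.46, 1.30 and 1.29 with PLT5. The mean over the 12 libraries was 2.64 at psaB, 1.85 at rpl20, 1.70 at psaA and 1.53 at rbcL. A consensus match stood within 100 bp of the summit in 4 of the 6, at psbD, psaB, psaA and rpl20, and that at psbD was centred 68 bp from the summit.

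The regions with a peak in all 4 GFP libraries and at most 2 PLT libraries lay mostly between genes. At 358706 to 359193, 1123 bp upstream of nad5, column 7 was 16.0, 7.55, 7.41 and 8.08 in GFP libraries (IM 1, IM 2, SAM 1, SAM 2), and no PLT library had a peak. At 116245 to 116904, 356 bp upstream of cox1, it was 14.3, 9.42, 6.56 and 7.67 with GFP, and 1 PLT library (PLT3 SAM 2) had a peak, of 1.26. On the chloroplast sequence, the region 80 bp upstream of atpI, an ATP synthase subunit, had 6.43, 5.46, 6.06 and 7.27 with GFP and no PLT peak. The others lay near trnH, trnP, psbJ and rps16 and in the intron of trnL, with GFP means of 1.84 to 5.61. The highest GFP region of both organelles also had peaks in all 12 PLT libraries: at 33954 to 36469, with its highest summit 5537 bp upstream of the mitochondrial trnS(GCT), column 7 was 17.4, 20.3, 14.1 and 13.5 with GFP, and 2.75 to 7.10 in PLT libraries. These values did not all come from a single site, since no mitochondrial cluster of summits within 100 bp held all 16 libraries.

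Summits of PLT and GFP peaks differed in sequence and in position. The consensus lay within 100 bp of 16.8 ± 1.68% of mitochondrial PLT summits (SD, n = 12 libraries) and 1.79 ± 3.57% of mitochondrial GFP summits (n = 4), beside 10.3% of all windows of that length. For the chloroplast the shares were 13.0 ± 2.44% with PLT baits and 2.09 ± 0.725% with GFP, beside 6.31% of all windows. For nuclear summits they were 21.1% with PLT baits and 2.77% with GFP, beside 7.18%. All windows here means every position, unique or not, and 29.0% of the mitochondrial and 64.6% of the chloroplast sequence was unique. By contrast, 709 of 716 mitochondrial and 929 of 941 chloroplast summits lay at unique positions. Windows of unique sequence alone were not counted. PLT libraries were thus above, and GFP libraries below, the share of all windows on each sequence, and the libraries of PLT baits and GFP did not overlap. No test was made of these shares, since a library's summits recur at the same sites in the others.

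GFP summits were low in GC. The median GC content within 100 bp was 45.8% at mitochondrial PLT summits and 36.3% at mitochondrial GFP summits (medians over libraries), beside 44.3% of all windows, again unique or not. On the chloroplast sequence it was 33.7% with PLT baits and 24.9% with GFP, beside 36.3%, and in the nuclear genome 38.3% and 23.6%. Of chloroplast summits, 59.2% lay in exons with PLT baits and 17.7% with GFP, beside 57.1% of the sequence to which reads can be placed uniquely. Between genes lay 30.3% with PLT baits and 64.1% with GFP, beside 31.2%. Mitochondrial summits lay between genes in 79.2% of cases with PLT baits and 97.3% with GFP, beside 82.4%. The part of GC content in where the GFP summits lay was not tested. Most fixed letters of the consensus are G or C, and the part of GC content in the consensus shares was not tested either.

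**Figure D3:**
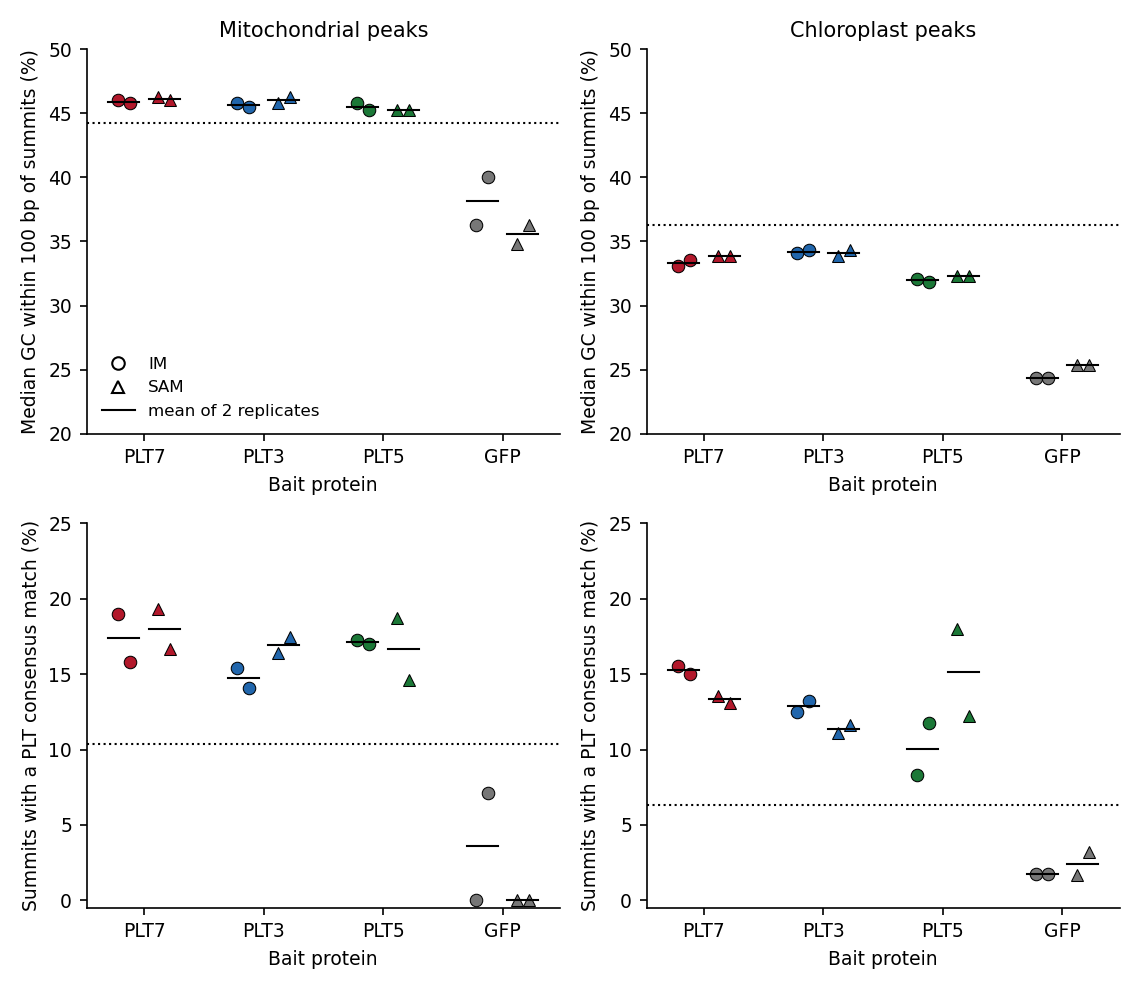
Median GC content within 100 bp of summits (top, percent) and the percent of summits with a consensus match within 100 bp (bottom) by bait, with circles for IM, triangles for SAM, lines for the mean of 2 replicates and dotted lines for all windows of the sequence. On both organelles GFP libraries sit below the dotted lines in all 4 panels, and PLT libraries sit above them except for chloroplast GC.

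By gene class, PLT summits were spread over the chloroplast sequence at 0.588 summits per kb of uniquely placeable sequence and library. The classes ranged widely: rbcL had 1.34, ribosomal protein genes 0.885, RNA polymerase genes 0.708, NDH genes 0.577, photosystem and electron transport genes 0.478, ATP synthase genes 0.414 and tRNA genes 0.327. GFP libraries had 0.594 over the whole sequence, with 0.64 in tRNA genes, 0.0926 in ribosomal protein genes and 0 in rbcL. On the mitochondrial sequence the PLT value was 0.531 over the whole, 2.24 in ATP synthase genes, 0.653 in complex I genes and 0.527 in rRNA genes. The value for ATP synthase genes rests on 0.893 kb of unique sequence, with 2 summits in every PLT library, and that of rbcL, a single gene, on 1.24 kb with 1 to 2 summits in a PLT library.

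Few peaks lay in organelle sequence that has copies elsewhere. Of the mitochondrial sequence, 29.0% was unique in the genome by 51-bp words and 70.5% had an exact copy in the nuclear genome, and of the chloroplast sequence 64.6% was unique and 33.9% had a copy on itself, the inverted repeat. Summits lay at unique positions for 709 of 716 mitochondrial and 929 of 941 chloroplast peaks. The longest stretch without a peak in any library was 50259 bp of the mitochondrial sequence (214792 to 265050), of which 3.22% was unique. On the chloroplast sequence the longest, of 26208 bp each, lay on both copies of the inverted repeat.

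**Figure D4:**
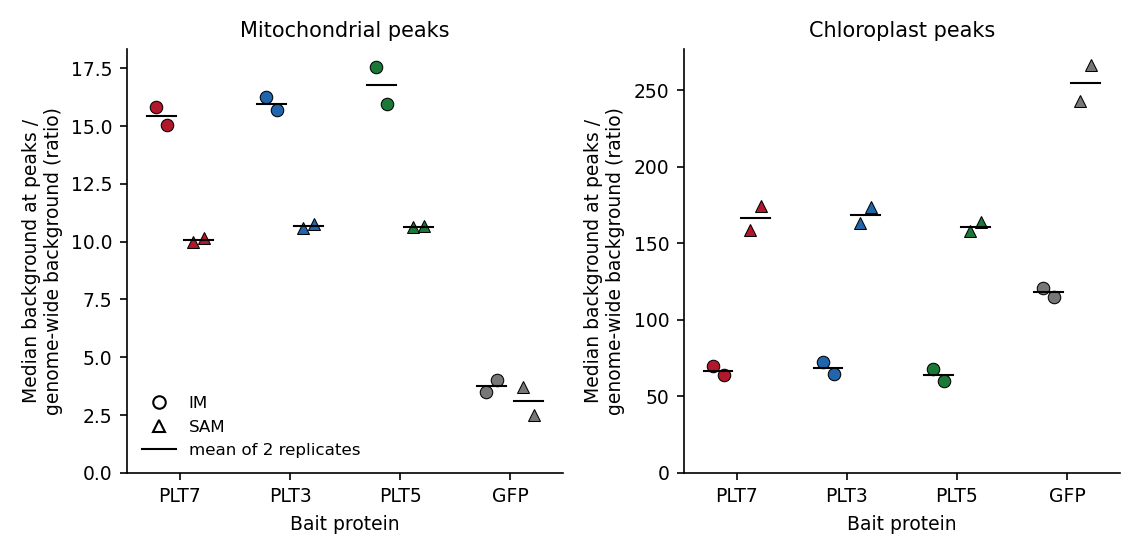
Median local background at mitochondrial (left) and chloroplast (right) peaks, as a ratio to the library's genome-wide background, by bait, with circles for IM, triangles for SAM and lines for the mean of 2 replicates. PLT libraries of the IM sit at 15.0 to 17.6 on mitochondrial DNA, against 9.98 to 10.8 for the SAM, and at 59.8 to 72.2 on chloroplast DNA, against 158 to 174 for the SAM.

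The local background at organelle peaks, which counts the fragments in 10 kb around a peak, differed between the tissues in opposite directions. Relative to the genome-wide background of the library, it was 15.0 to 17.6 at mitochondrial peaks in the 6 PLT libraries of the IM and 9.98 to 10.8 in the 6 of the SAM. At chloroplast peaks it was 59.8 to 72.2 in the IM and 158 to 174 in the SAM. The tissues did not overlap in either organelle, and IM and SAM plants also differed in age and growth medium, so tissue and growth cannot be told apart. In GFP libraries the ratio at chloroplast peaks was 115 to 121 in the IM and 243 to 266 in the SAM, and at mitochondrial peaks, which were 5 to 14 per library, 3.48 to 4.03 in the IM and 2.52 to 3.71 in the SAM.

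Differences in column 7 between baits and tissues were tested with limma on log2 values, over 2208 regions with a peak in all 12 PLT libraries, of which 68 lay on organelle DNA (37 mitochondrial, 31 chloroplast). GFP libraries were left out. PLT7 was higher than PLT5 in 67 of the 68 regions and lower in 0 (0 also at an unadjusted p under 0.05), at a median log2 difference of 1.19, beside 98.2% higher and 0.725% lower of all regions and a median of 1.48. PLT7 was higher than PLT3 in 55 and lower in 2, at a median of 0.51, beside 96.0% and 0.498% of all and a median of 0.82. PLT3 was higher than PLT5 in 66 and lower in 0 (0 also unadjusted), at a median of 0.68, beside 92.6% and 0.408% of all and a median of 0.63. Differences between PLT7 and PLT3 were called at 83.8% of organelle regions, beside 96.9% of nuclear ones. When each library was centred on its own median over all regions, 11 organelle regions were higher and 42 lower for PLT7 − PLT5, 2 higher and 45 lower for PLT7 − PLT3, and 13 higher and 14 lower for PLT3 − PLT5.

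The regions where PLT7 was lower than PLT3 were atp6 (log2 difference −0.50 ± 0.10 SE, limma adjusted p = 5.56e-05) and ccmFN1 (−0.24 ± 0.11, adjusted p = 0.0354). The atp6 region was the only one of the 68 that PLT7 did not have higher than PLT5 (−0.16 ± 0.10, limma adjusted p = 0.135). The call at ccmFN1 was lost without any 1 of 6 libraries (PLT3 IM 2, PLT3 SAM 1, PLT3 SAM 2, PLT7 IM 1, PLT7 IM 2 or PLT7 SAM 1; adjusted p = 0.0513 to 0.144). The lowest adjusted p of PLT7 against PLT5 among organelle regions was at 362178 to 362652 near atp4, an ATP synthase subunit, with a log2 difference of 2.20 ± 0.096 (limma adjusted p = 7.77e-15).

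Between tissues, 3 of the 2208 regions passed the test, all 3 of them higher in the IM (0.136% of all higher and 0% lower), the mitochondrial regions at nad2, atp6 and ccmFN1. The number of other regions called depended on the fit: 8 nuclear regions were added with the replicate block, 62 with each library centred on its median, and 84 nuclear regions and ndhH without PLT7 SAM 1 (88 calls in all). The log2 IM − SAM difference was 0.94 ± 0.095 SE at nad2 (limma adjusted p = 1.04e-06), 0.62 ± 0.082 at atp6 (adjusted p = 8.52e-05) and 0.46 ± 0.086 at ccmFN1 (adjusted p = 0.0131). At an unadjusted p under 0.05, 8 organelle regions were higher and 3 lower in the IM, of 381 and 35 over all regions. The median over the 68 organelle regions was 0.02, and over all regions 0.08. The call at ccmFN1 was lost without PLT3 IM 2 (adjusted p = 0.0542) or PLT5 SAM 1 (0.0704). With each library centred on its median, the 3 calls remained and 5 organelle regions were called lower in the IM. If the baits did share the 2 DNA collections of a tissue, the tissue comparison rests on 2 against 2 collections, and the p-values that count each library would be too small. With libraries of one tissue and replicate number as a random block (correlation 0.0886), the adjusted p was 4.82e-06 at nad2, 0.000386 at atp6 and 0.0453 at ccmFN1 (limma). This fit used a single correlation for all regions and still counted each library in its degrees of freedom. It is therefore not a test of 2 against 2 collections and does not remove this limit.

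These 3 regions also stood apart in their background. In all 12 libraries the background MACS used there lay within 1% of the genome-wide one, whereas the other 34 mitochondrial regions had median ratios of 5.72 to 17.8 and the chloroplast regions 57.8 to 134. Only 5.02% to 6.77% of the 10 kb around them was unique sequence, against at least 51.1% around the other mitochondrial regions (median 94.5%). At these 3 regions column 7 therefore sets mitochondrial fragments against the background of the whole genome. In the same units, the median background at mitochondrial peaks was 15.0 to 17.6 in PLT libraries of the IM and 9.98 to 10.8 in those of the SAM. Column 7 at the 3 regions thus does not measure a rise over mitochondrial DNA. The ratio of mitochondrial background in the IM to that in the SAM, given above, moved in the same direction as the 3 calls, and its part in them was not tested.

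**Figure D5:**
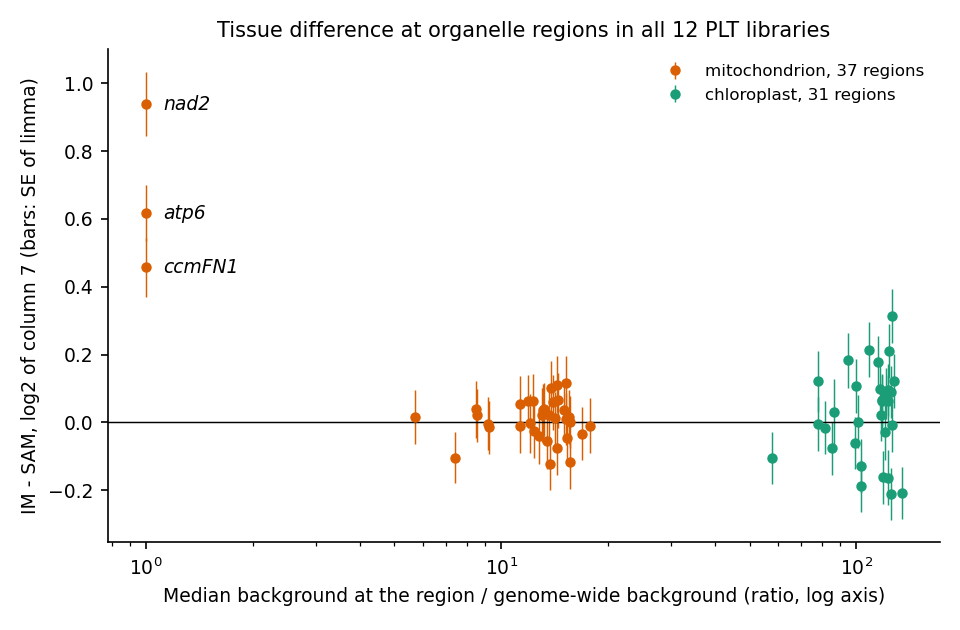
IM − SAM difference of log2 column 7 (vertical axis, bars are SE of limma) against the median background of a region relative to the genome-wide background (horizontal log axis, ratio) for the 37 mitochondrial and 31 chloroplast regions with a peak in all 12 PLT libraries. The regions at nad2, atp6 and ccmFN1 sit at a ratio of 1 and at 0.94, 0.62 and 0.46, and all other regions lie between −0.21 and 0.31.

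Of the regions without a peak in all 12 PLT libraries, 4 mitochondrial ones also had their background at the genome-wide level in every PLT library with a peak, and the highest of them, near atp1, had another order of baits. At 70167 to 70799, upstream of atp1, the alpha subunit of ATP synthase, column 7 was 2.84 and 3.40 with PLT7 in the IM and 2.81 in SAM 1, without a peak in SAM 2, 4.31, 5.95, 3.46 and 4.53 with PLT3, and 13.6, 13.7, 9.10 and 10.7 with PLT5. It was 6.16 in GFP IM 2, the only GFP library with a peak there. By the mean of the replicates this was the highest region of PLT5 in both tissues, although ccmFN1 and atp6 were higher in PLT5 IM 1 and atp6 in PLT5 SAM 1. PLT7 was lower here than at nad2, atp6 or ccmFN1. The region was not in the limma fit, since 1 PLT library lacked a peak. The other 3 were chosen after their values were seen. In the intron of nad4 (214395 to 214791), column 7 was 4.66, 5.52 and 3.14 with PLT3 (IM 1, IM 2, SAM 1) and 8.94, 7.97, 5.16 and 4.76 with PLT5, and no PLT7 library had a peak. At 277401 to 277827, 2639 bp upstream of trnD(GTC), it was 3.59 and 4.07 with PLT7 (IM 1, IM 2), 5.16, 5.09 and 3.57 with PLT3 (IM 1, IM 2, SAM 2), and 7.81, 6.90 and 4.44 with PLT5 (IM 1, IM 2, SAM 1). At 301767 to 301995, 2937 bp downstream of trnW(CCA), only PLT5 IM 1 had a peak, of 4.52. PLT5 had the highest value at all 4 regions, at trnW(CCA) through the only peak. These values, too, were set against the genome-wide background. In the same units, the median background at mitochondrial peaks was 17.6, 15.9, 10.6 and 10.7 in the PLT5 libraries (IM 1, IM 2, SAM 1, SAM 2). The PLT5 values lay below it, except near atp1 in SAM 2, where both were 10.7. They therefore do not show a rise over mitochondrial DNA.

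The numbers of organelle peaks did not pass a test between tissues, and for their share the result depended on whether the bait was taken into account. The organelle share was 0.674 ± 0.331% in the IM and 1.03 ± 0.729% in the SAM (SD, n = 8 each; exact permutation test over all libraries, p = 0.233). Within each bait and replicate number the IM share was below the SAM share in 8 of 8 pairs, and the exact p was 0.00781 with the replicate block, the smallest possible, and 0.00617 with labels permuted within bait. The denominator moved with it: the total number of peaks in the IM library was 0.926 to 2.62 times that in the SAM library of the same bait and number. These tests, too, count each library as a separate sample of its tissue. The IM − SAM difference was 2.5 in mitochondrial peaks (p = 0.727), −0.625 in chloroplast peaks (p = 0.871) and 0.115 in the median of column 7 (p = 0.786; exact permutation tests, all adjusted values at least 0.327).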

How the data were processed

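DAP-seq libraries of 3xFLAG-PLT7, 3xFLAG-PLT3, 3xFLAG-PLT5 and 3xFLAG-GFP were grouped by bait and tissue from the labels, 2 replicates each. Libraries were amplified with 15 PCR cycles and selected above 200 bp. Per the submitters' processing notes, fastp 0.23.2, BWA 0.7.17, SAMtools 1.15 and MACS3 (version 3) were used with the genome TAIR10. Without a control library, and per library, the authors called peaks at q-values of at most 0.1 and merged signal across gaps of at most 100 bp. The deposited column 7 is a fold enrichment, a linear ratio of pileup to local background. The authors' −log10 p-values and −log10 q-values were deposited in columns 8 and 9, and the deposited score in column 5 is a multiple of the −log10 q-value with decimals dropped. No replicate filter had been applied to these lists, and GFP peaks had not been taken out of the PLT lists. The treatment of multi-mapping and duplicate reads is not given in the sources used here, and it bears on duplicated organelle sequence and on pileups.

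Sequence names matched the RefSeq copy of TAIR10.1, which gave the organelle sequences and genes. Members and lists were chosen with earlier results of these data known. Pileup and background were solved from columns 7 and 8 as (pileup + 1)/(background + 1) and a Poisson tail, and a whole pileup within 0.1 was found for at least 99.6% of all peaks and 83.5% to 100% of organelle peaks of a library. Read totals were not used here, so the genome-wide background stands for depth. Libraries were compared with exact two-sided permutation tests of group means, organelle with nuclear peaks by exact sign-flip tests, and regions with limma 3.58.1 in R 4.3.3, Benjamini-Hochberg adjusted over all regions, with bait and tissue as terms. Scripts used Python 3.11.15, NumPy 2.4.6, pandas 2.3.3, SciPy 1.17.1 and matplotlib 3.10.9, and were tested on simulated data. Column 7 of a region is that of its highest peak in a library.

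Regions were named by the gene at, or nearest to, the highest summit of any library, GFP included. Names were given for the 10 with the highest mean column 7 of each recurrence pattern, the highest of each bait and tissue, and the 10 with the lowest adjusted p, and others were named where said. Meristems were collected per replicate, and the p-values measure the spread between these libraries. Alternatives were a q-value of 0.01, unique summits only, shares of summed length, ratios to the nuclear median, permutation within tissue, the replicate block, other overlap and summit rules, other motif windows and mismatches, centred libraries, and each library left out. Summits within 100 bp for the overlap with GFP or between replicates, leaving out libraries for the regions, each organelle apart, for the overlap with GFP also each tissue, permutation within bait, and tissue with replicate number as a random block (duplicateCorrelation) were chosen after seeing the data.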

Additional observations from a re-analysis of the deposited data

How the results depend on the processing

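The number of mitochondrial peaks, the chloroplast share of organelle peaks and the median of column 7 kept their PLT − GFP direction and side of the threshold at a q-value of 0.01, with unique summits only and with any 1 library left out. In units of the nuclear median, the differences in column 7 were −0.0732 for PLT − GFP (exact permutation p = 0.0599), 0.0059 for PLT3 − GFP, which changed sign, 0.0481 for PLT7 − PLT5 (exact p = 0.0571; −0.0309 for chloroplast peaks only) and −0.0945 for PLT7 − PLT3, which changed sign (−0.0316 for mitochondrial and −0.108 for chloroplast peaks only). Against nuclear peaks, mitochondrial peaks only gave 0.723 for the median of column 7 and −31.3 for peaks per Mb, both opposite in sign to the organelles pooled, and the mitochondrial excess in overlap with GFP was 0.534 points in SAM libraries only (exact p = 0.25). With 1 library left out, the difference in organelle share was −0.795 to −0.601 for PLT7 − GFP, −0.742 to −0.548 for PLT3 − GFP, −1.29 to −0.802 for PLT7 − PLT5 and −1.23 to −0.749 for PLT3 − PLT5, and the unadjusted exact p, 0.0286 with all libraries, was 0.0571 in the 4 fits without a library of the first-named bait. The adjusted p was above 0.05 with all libraries too. The difference in organelle peaks was 10.8 to 17.8 for PLT7 − PLT5 and −11.8 to −3.83 for PLT7 − PLT3, in mitochondrial peaks 5 to 8.33 for PLT7 − PLT5, and in chloroplast peaks −9.25 to −5.5 for PLT5 − GFP, 5.83 to 9.5 for PLT7 − PLT5 and −7.17 to −2.83 for PLT7 − PLT3. These reached an unadjusted exact p of 0.0286 only without PLT5 IM 1 (contrasts with PLT5) or PLT3 IM 1 (contrasts with PLT3). As a share of summed peak length, PLT5 − GFP was 2.10 percentage points (unadjusted exact p = 0.0286).

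The labels do not say that replicate numbers pair libraries across baits or tissues. Replicate 1 was above replicate 2 in 2 of 8 groups for mitochondrial peaks, 3 of 8 for chloroplast peaks and 6 of 8 for column 7. With the replicate block, the organelle share differed by −0.358 percentage points between IM and SAM (exact p = 0.00781; 0.00617 with labels permuted within bait), and no other contrast of libraries crossed the threshold. In limma the block gave 58 organelle calls for PLT7 − PLT3, 67 for PLT3 − PLT5 and 11 calls over all regions for IM − SAM. Among 4 libraries a group the block leaves too few pairings for a test. Joining summits within 100 bp gave 0 mitochondrial and 2 chloroplast clusters in all 16 libraries, 4 and 28 in all 4 GFP libraries, and 18 chloroplast clusters in all 12 PLT libraries only, and within 50 bp 0 and 0, 4 and 33, and 16. Centred libraries gave 27 organelle calls for PLT3 − PLT5 and 8 for IM − SAM, and over all regions 1108 calls for PLT7 − PLT5, 777 for PLT7 − PLT3, 779 for PLT3 − PLT5 and 70 for IM − SAM. With 1 library left out, IM − SAM had 2 to 88 calls over all regions. With an exact match the consensus share was 1.78% (mitochondrial, PLT), 0% (chloroplast, PLT) and 0% (chloroplast, GFP). Within 200 bp it was 24.8%, 5.95% (mitochondrial, GFP), 17.5% and 8.44%, and within 50 bp it was 1.25% (chloroplast, GFP). The cause of these changes was not tested. GFP libraries had 37 mitochondrial peaks in all, which limits every mitochondrial GFP share.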
